A study of Mus musculus with 13 samples.

Results

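The SOXF transcription factors and the genes of the Notch pathway were followed through 13 RNA-seq libraries of mouse embryonic stem (ES) cells differentiating towards blood. The 10 genes were taken by their symbols from the table of 45250 genes: the SOXF factors Sox7, Sox17 and Sox18, the receptors Notch1 and Notch4, the ligands Dll1, Dll4 and Jag1, and the target genes Hey1 and Hes1. All 10 were found, and each reached 1 FPKM (the fragments of a gene divided by its transcript length and by the mapped fragments of the library, a level per length) in at least 2 libraries, as did 13802 genes in all. Sox18 and Dll4 did so only through haemogenic endothelium, where they were high, so their inclusion among the genes tested is not independent of the step to that stage.

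Flk-1+ cells, enriched for haemangioblasts, were isolated from embryoid bodies with an antibody against the VEGF receptor Flk-1 (the product of Kdr), from a wild-type (WT) line, an Lmo2-/- line and a Tal1-/- line, with 3 libraries each. WT and Lmo2-/- Flk-1+ cells were also cultured further, and haemogenic endothelium 1 (HE1) was sorted as Tie2+, Kit+ and CD41-, with 2 libraries each. The mutant lines lack a functional Lmo2 or Tal1 gene throughout, and no other treatment separated the genotypes within a stage. The culture towards HE1 contained VEGF, an interleukin and conditioned medium, so stage and culture medium cannot be told apart. Each genotype came from 1 ES cell line, so genotype and line cannot be told apart. The p-values of the fits below rest on the spread between libraries of a group, pooled over all 5 groups unless stated. They hold no spread between lines of the same genotype. These are bulk samples, in which fewer cells of a type and less RNA per cell cannot be told apart. Libraries are numbered 0 to 2 within a group, as in the deposited table.

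SOXF proteins share a closely related DNA-binding domain and act in the specification of endothelium, of arteries and of haemogenic cells. Notch receptors are cut when a ligand of the Delta or Jagged family on a neighbouring cell engages them, and the released intracellular part joins RBPJ on DNA and activates genes of the Hes and Hey families. In embryonic vessels the Notch pathway is known for arterial identity and for its part in the emergence of definitive blood from haemogenic endothelium.

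RefSeq promoter windows on GRCm38.p6 were at hand for 5 of the 10 genes (Notch1, Notch4, Dll1, Dll4 and Jag1) and not for Sox7, Sox17, Sox18, Hey1 or Hes1. The 250 bases before the start are shown for Notch4 and Dll4, a receptor and a ligand of endothelium, which both had higher levels in every HE1 library than in any Flk-1+ library. Notch1 met the same condition, and its window, without a match to any motif searched below, is not shown. Notch4 lies at chr17:34564045-34564294 on the plus strand and Dll4 at chr2:119325534-119325783 on the plus strand. Both strands were searched for 5 motifs, and capitals mark a match. CAGNTG was the E-box, which basic helix-loop-helix factors such as TAL1 bind. GATAA stood for GATA factors and ACAAT for the SOX family. GGAAGT was used for ETS factors, which are widely expressed in endothelium. TGGGAA was used for RBPJ, and matches to these last motifs can share bases.
Notch4: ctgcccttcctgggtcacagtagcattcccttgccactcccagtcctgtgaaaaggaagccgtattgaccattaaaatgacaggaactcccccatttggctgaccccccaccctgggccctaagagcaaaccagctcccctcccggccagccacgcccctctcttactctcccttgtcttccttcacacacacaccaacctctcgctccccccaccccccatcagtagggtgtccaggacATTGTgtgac
Dll4: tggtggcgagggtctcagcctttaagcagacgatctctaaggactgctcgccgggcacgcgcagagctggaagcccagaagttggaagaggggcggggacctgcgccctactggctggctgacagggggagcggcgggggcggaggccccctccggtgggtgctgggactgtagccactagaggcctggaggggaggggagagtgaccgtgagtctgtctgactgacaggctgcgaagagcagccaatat
The Notch4 window held 1 SOX match, read on the other strand, 10 bases before the RefSeq start, and the Dll4 window held no match to any of the 5 motifs. Over the 6 windows of the 5 genes, 3 held a SOX match, 2 an E-box, and 0 a GATA, ETS or RBPJ match. Of 32851 windows of the same length in the table, 27.7% held a SOX match, 44.8% an E-box, 22.6% a GATA, 19.7% an ETS and 21.6% an RBPJ match. These are matches of letters only, and a window without a match says nothing of a factor.

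The libraries differed in quality. Library 1 of the HE1 labelled Lmo2-/- listed 9694 genes above 0 and the other 12 listed 11861 to 15641. Among 4062 genes with a median level above 10 FPKM, 183 were at 0 in that library and at most 55 in any other, and a single fragment was worth 3.71 times the median worth elsewhere. A gene listed at 0 is therefore given as such. Lmo2 itself was 22.8, 30.8 and 21.6 FPKM in WT Flk-1+ cells and 2.63, 6.48 and 2.17 FPKM in Lmo2-/- Flk-1+ cells. In HE1, however, it was 4.30 and 20.6 FPKM in the WT libraries and 6.42 FPKM and 0 in those labelled Lmo2-/-, so the HE1 labels are not separated by Lmo2. Tal1 was at most 3.41 FPKM in Tal1-/- cells and up to 37.4 FPKM in WT Flk-1+ cells, without overlap. The summed level of 12 endothelial markers was 86.1 to 335 FPKM in the Flk-1+ groups, 1397 to 1440 FPKM in WT HE1 and 1039 to 1314 FPKM in HE1 labelled Lmo2-/-, with Emcn at 0 in both of the latter and in all Flk-1+ libraries and Cldn5 at 0 in both WT HE1 libraries. In the Flk-1+ libraries the largest part of this sum was Kdr (68.7 to 252 FPKM), which encodes the antigen of the sort.

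Sox7 (chr14:63943673-63950732, plus strand, GRCm38), a SOXF factor of early haemangioblasts and endothelium, was by far the most abundant of the 3 in FPKM. It was 26.0, 11.3 and 6.95 FPKM in WT Flk-1+ cells, 3.28, 18.7 and 2.59 FPKM in Lmo2-/- cells and 0.747, 0.226 and 1.66 FPKM in Tal1-/- cells. In HE1 it was 202 and 159 FPKM in WT and 120 and 142 FPKM in the libraries labelled Lmo2-/-. Thus both HE1 groups lay above every Flk-1+ library, the Tal1-/- libraries lay below every other library, and WT and Lmo2-/- Flk-1+ cells overlapped. Sox7 made up 76.3% to 100% of the summed SOXF level in every library.

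Sox17 (chr1:4490931-4497354, minus strand), a factor of endoderm and of arterial and haemogenic endothelium, was low throughout. WT Flk-1+ libraries held 1.82, 0.452 and 1.49 FPKM. In Lmo2-/- Flk-1+ cells it was listed at 0 in libraries 0 and 1 and was 0.667 FPKM in library 2, and in Tal1-/- cells it was 0.233 FPKM in library 0 and listed at 0 in the others. WT HE1 held 6.70 and 18.5 FPKM, above all other libraries, and HE1 labelled Lmo2-/- held 3.55 FPKM and 0. Of 12 endoderm markers, 10 were at 0 in both WT HE1 libraries, while Hhex, which endothelium also expresses, was at least 8.20 FPKM there and at most 6.12 FPKM in WT Flk-1+ cells. The part of endoderm in the Sox17 levels was not tested.

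Sox18 (chr2:181669836-181671640, minus strand), a factor of blood and lymphatic vessel development, was 0.306, 0.373 and 0.397 FPKM in WT Flk-1+ cells, 0.292 FPKM in library 0 and 0 in libraries 1 and 2 of Lmo2-/- Flk-1+ cells, and 0 in all 3 Tal1-/- libraries. It was 35.9 and 18.3 FPKM in WT HE1, and 5.16 FPKM and 0 in HE1 labelled Lmo2-/-. Every WT HE1 library stood above every other library, and the Lmo2-/- HE1 and Flk-1+ groups overlapped. Sox18 made up 9.38% to 14.7% of the summed SOXF level in WT HE1 and 0% to 4.02% in HE1 labelled Lmo2-/-.

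**Figure D1:**
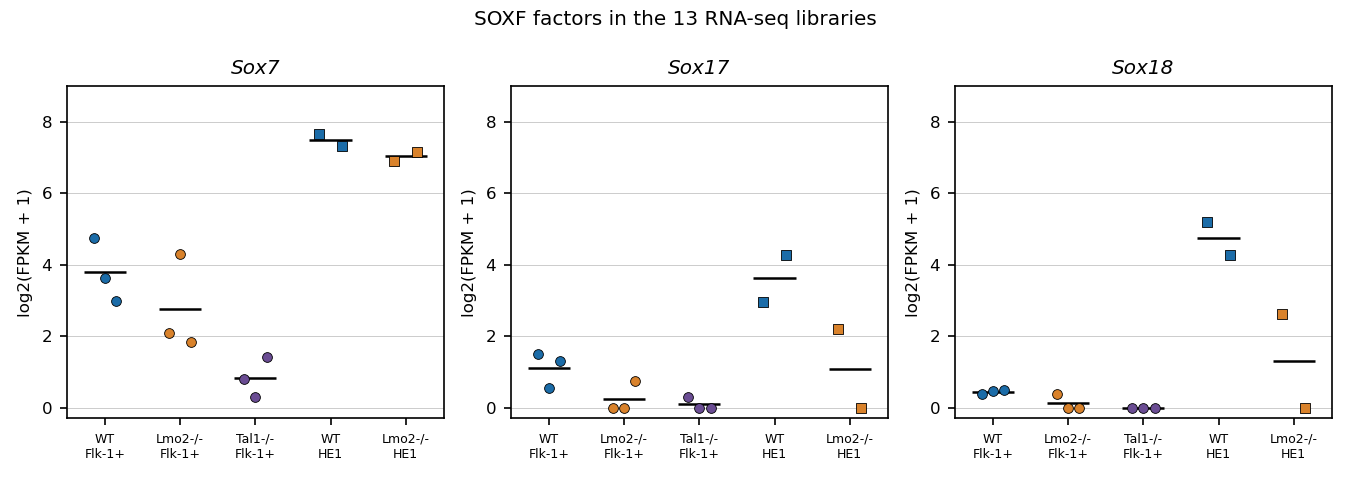
Levels of Sox7, Sox17 and Sox18 as log2(FPKM + 1) in the 13 libraries. Points are libraries (circles for Flk-1+ cells, squares for HE1) and lines are group means of the log2 values. Sox7 was high in both HE1 groups and lowest in Tal1-/- cells, whereas Sox17 and Sox18 were highest in WT HE1.

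Notch1 (chr2:26457903-26516663, minus strand), the receptor required for definitive haematopoiesis, was the most abundant Notch gene of the set in HE1. It was 72.7, 19.0 and 16.0 FPKM in WT Flk-1+ cells, 16.2, 54.4 and 32.6 FPKM in Lmo2-/- cells and 19.9, 29.6 and 11.9 FPKM in Tal1-/- cells, so the Flk-1+ groups overlapped. In HE1 it was 142 and 90.8 FPKM in WT and 85.2 and 337 FPKM in the libraries labelled Lmo2-/-. All 4 HE1 libraries were above all 9 Flk-1+ libraries, and the HE1 groups overlapped. The Flk-1+ libraries with the highest Notch1, WT library 0 and Lmo2-/- library 1, were also those with the highest Sox7 and the highest endothelial sum within their groups (335 and 210 FPKM). In Tal1-/- cells library 1 had the highest Notch1 and endothelial sum (104 FPKM) but the lowest Sox7. The part of this sum, most of all that of Kdr, in the spread was not tested.

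Notch4 (chr17:34564268-34588503, plus strand), a receptor expressed mainly in endothelium, was 0.988, 3.55 and 2.36 FPKM in WT Flk-1+ cells, 4.30, 1.44 and 0.701 FPKM in Lmo2-/- cells and 0.141, 1.89 and 0.334 FPKM in Tal1-/- cells. It was 43.9 and 28.4 FPKM in WT HE1 and 8.05 and 6.96 FPKM in HE1 labelled Lmo2-/-. The 3 Flk-1+ groups overlapped, both HE1 groups were above all of them, and the HE1 groups stood apart. Notch4 made up 18.6% to 19.8% of the summed level of the 4 Notch receptors in WT HE1, 1.46% to 5.12% in HE1 labelled Lmo2-/- and at most 5.95% in any Flk-1+ library.

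Among the ligands, Dll4 (chr2:119325784-119335962, plus strand), the Delta ligand of arterial endothelium, was 1.64, 0.115 and 0.350 FPKM in WT Flk-1+ cells, 0.780, 0 and 0.126 FPKM in Lmo2-/- cells and 0 in all 3 Tal1-/- libraries. In HE1 it was 11.9 and 6.08 FPKM in WT and 2.51 and 8.08 FPKM in the libraries labelled Lmo2-/-. All 4 HE1 libraries were above all Flk-1+ libraries, with overlap between the HE1 genotypes.

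Dll1 (chr17:15367354-15376872, minus strand), a Delta ligand of somitic and neural tissue, was 6.24, 1.33 and 2.96 FPKM in WT, 2.76, 6.79 and 5.33 FPKM in Lmo2-/- and 1.19, 2.39 and 2.46 FPKM in Tal1-/- Flk-1+ cells. It was 1.71 and 1.52 FPKM in WT HE1 and 0 in both HE1 libraries labelled Lmo2-/-. The WT HE1 values lay within the range of the WT and Tal1-/- Flk-1+ libraries, and the 2 zeros lay below every other library.

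Jag1 (chr2:137081456-137116644, minus strand), a Jagged ligand, was 5.47, 2.18 and 1.61 FPKM in WT, 2.60, 3.22 and 2.58 FPKM in Lmo2-/- and 3.30, 5.71 and 2.80 FPKM in Tal1-/- Flk-1+ cells. It was 6.68 and 4.39 FPKM in WT HE1 and 3.66 and 8.01 FPKM in HE1 labelled Lmo2-/-. Every group overlapped its neighbour in the order of means, although both HE1 libraries labelled Lmo2-/- were above the 3 Lmo2-/- Flk-1+ libraries. In the summed level of 5 ligands (Dll1, Dll3, Dll4, Jag1 and Jag2, without Dlk1), Dll3, a ligand of presomitic mesoderm, held 42.6% to 76.0% in the Flk-1+ libraries. It was listed at 0 in all 4 HE1 libraries. Dll4 held 44.9% to 50.9% in WT HE1 and 38.1% to 42.2% in HE1 labelled Lmo2-/-. Of 10 presomitic and somitic markers, a list that includes Dll3, 8 were at 0 in both libraries of each HE1 group.

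Of the target genes, Hes1 (chr16:30064384-30067796, plus strand), a repressor induced by Notch and by other signals, was 11.3, 12.3 and 15.3 FPKM in WT, 12.2, 8.23 and 11.6 FPKM in Lmo2-/- and 21.2, 21.9 and 13.1 FPKM in Tal1-/- Flk-1+ cells. In HE1 it was 0 and 4.18 FPKM in WT and 10.7 FPKM and 0 in the libraries labelled Lmo2-/-. Both WT HE1 libraries were below all WT Flk-1+ libraries, and the HE1 and Flk-1+ libraries labelled Lmo2-/- overlapped. For the 0 in library 1 labelled Lmo2-/-, the smallest Hes1 level above 0 in any library, scaled to what a fragment is worth there, came to 11.4 FPKM. That smallest level, 4.18 FPKM, may hold more than 1 fragment, so how much this 0 tells is not known. For Dll1 and Hey1, also at 0 in that library, the same measure came to 4.09 and 7.34 FPKM, with the same limit. Hey1 (chr3:8663359-8667256, minus strand), a target in arterial endothelium, was 3.77, 1.93 and 3.43 FPKM in WT, 4.06, 4.46 and 2.77 FPKM in Lmo2-/- and 3.19, 7.32 and 4.33 FPKM in Tal1-/- Flk-1+ cells. It was 6.72 and 3.03 FPKM in WT HE1 and 2.38 FPKM and 0 in HE1 labelled Lmo2-/-, and the WT HE1 values were within the Flk-1+ range.

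**Figure D2:**
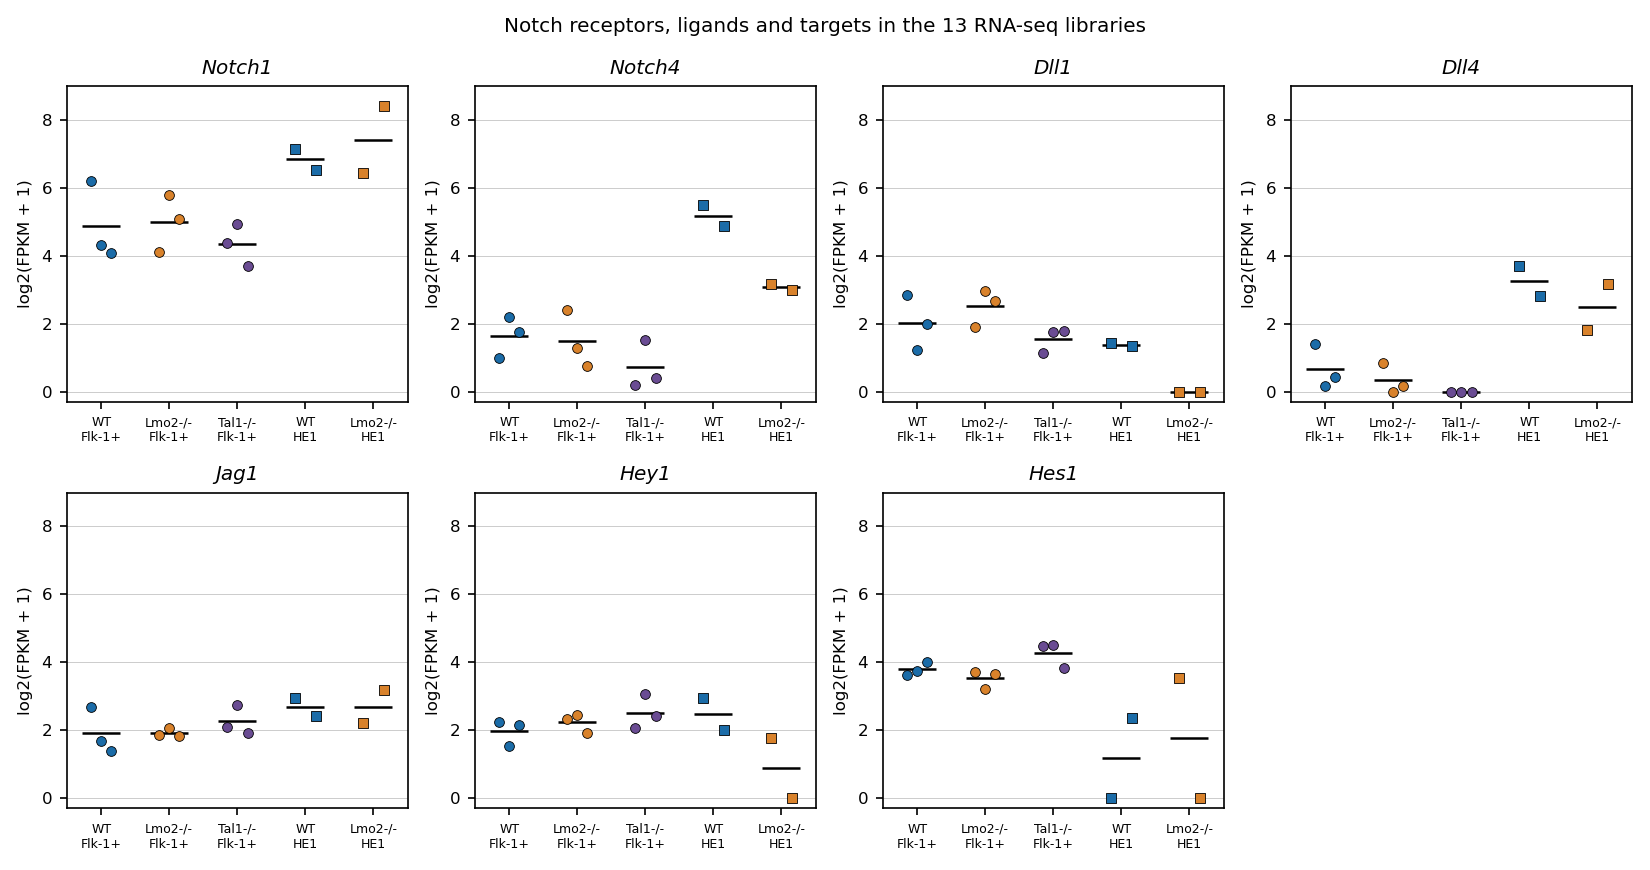
Levels of 2 Notch receptors, 3 ligands and 2 target genes as log2(FPKM + 1) in the 13 libraries. Points are libraries (circles for Flk-1+ cells, squares for HE1) and lines are group means of the log2 values. Notch1, Notch4 and Dll4 were higher in HE1 than in Flk-1+ cells, Hes1 was lower in WT HE1 than in WT Flk-1+ cells, and Jag1 overlapped between WT Flk-1+ cells and WT HE1 and between the HE1 groups.

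GENCODE places a gene on the opposite strand over 5 of the 10 (Sox17, Notch1, Notch4, Dll1 and Dll4). The libraries were made with a stranded kit, but the use of strand in counting is not given in the sources used here. Whether reads of a gene and its antisense partner were told apart there is therefore not known.

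**Figure D3:**
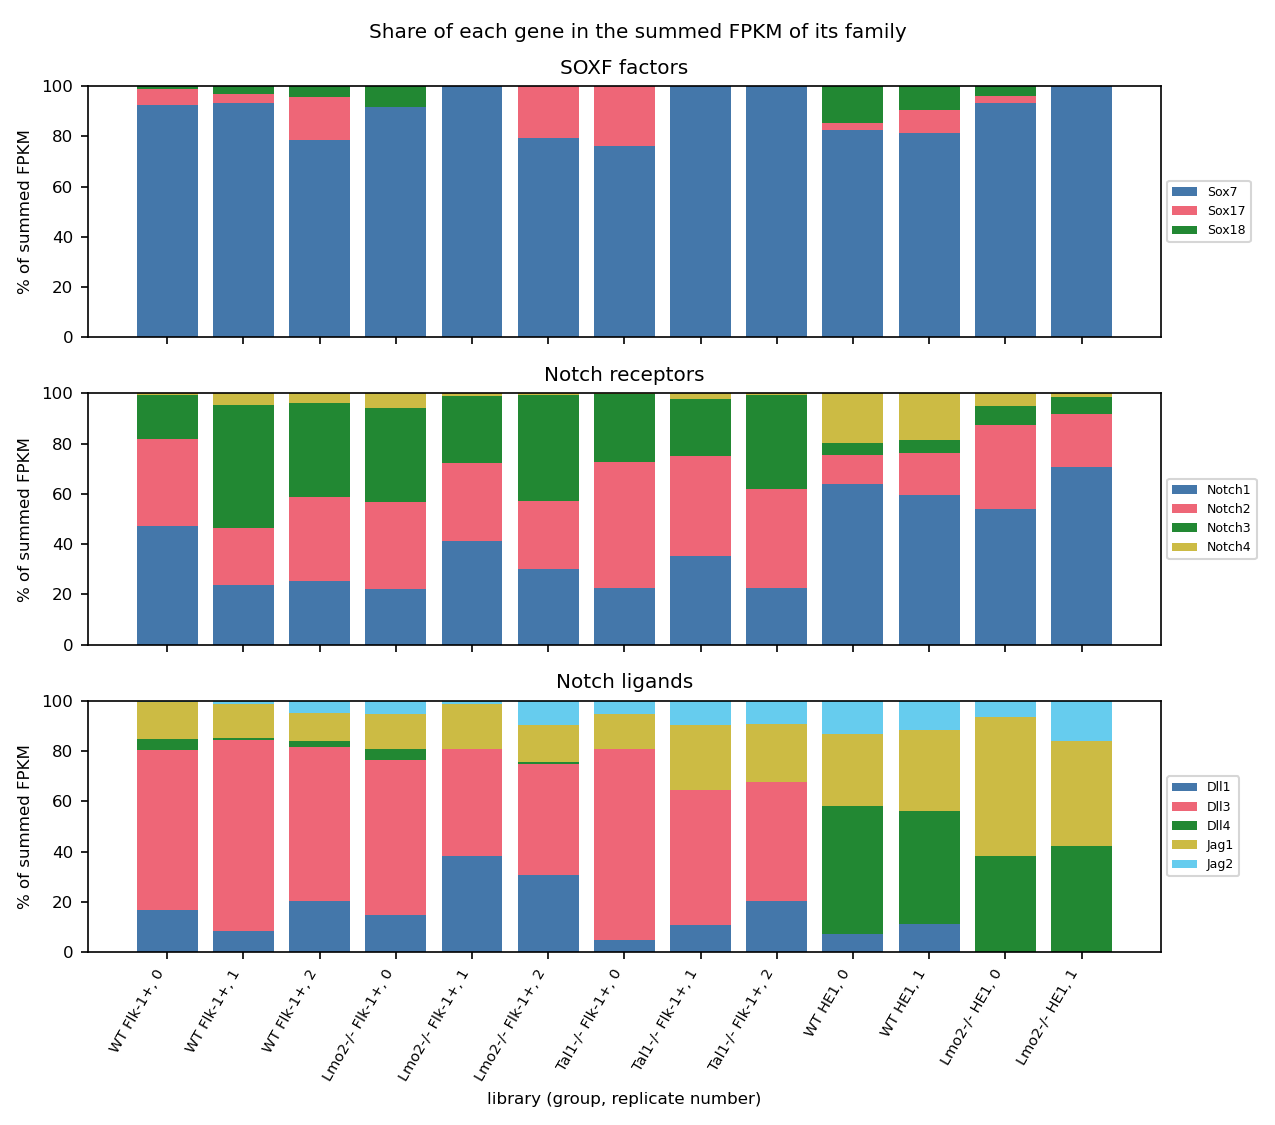
Share of each gene in the summed FPKM of the SOXF factors (top), the 4 Notch receptors (middle) and 5 Notch ligands (bottom) in each library, in percent. Sox7 dominated the SOXF factors in all libraries. Notch4 took 18.6% to 19.8% of the receptors in WT HE1 and at most 5.95% in any other library, and Dll3 was at 0 in HE1, where Dll4 took 38.1% to 50.9% of the ligands.

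The step from Flk-1+ cells to HE1 was tested first. All log2 fold changes are differences of group means of log2(FPKM + 1), given with the standard error (SE), and understate the change of low genes. Adjusted p-values come from limma with Benjamini-Hochberg adjustment over the 13802 genes, and a gene is called at an adjusted p below 0.05 with a mean above 10 FPKM in at least 1 of the groups compared. On passing to HE1, 4 of the 10 genes rose in WT cells and 0 fell, where 6.98% of all genes tested were called, 6.04% higher and 0.942% lower. The 4 were Sox18 (log2 fold change 4.30, SE 0.61, adjusted p = 0.00074), Sox7 (3.70, SE 0.68, adjusted p = 0.0040), Notch4 (3.54, SE 0.60, adjusted p = 0.0023) and Sox17 (2.50, SE 0.63, adjusted p = 0.024). The median over the 10 was 2.23, against 0.11 for all genes tested. The call of Sox17 was lost with a pseudocount of 0.1 (adjusted p = 0.20) and with only the groups compared in the fit (adjusted p = 0.064). It was also lost without WT Flk-1+ library 1 (adjusted p = 0.10), without WT Flk-1+ library 2 (adjusted p = 0.056) or without WT HE1 library 1 (adjusted p = 0.20), and the call of Sox7 was lost without WT HE1 library 0 (adjusted p = 0.062).

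Dll4 differed by 2.59 (SE 0.54, limma adjusted p = 0.0084) but its mean of 8.999 FPKM in WT HE1 was under the level required for a call. Without that level requirement 5 of the 10 genes passed, against 9.74% of all genes tested. Notch1 differed by 1.97 (SE 0.72, limma adjusted p = 0.11). This became a call without WT Flk-1+ library 0 (2.63, adjusted p = 0.028) and with library weights (2.39, adjusted p = 0.012). Hes1 differed by -2.60 (SE 0.85, limma adjusted p = 0.074), and passed the threshold after quantile normalization (adjusted p = 0.029), after rescaling to a common median (adjusted p = 0.036) and with library weights (adjusted p = 0.0067). Jag1, Hey1 and Dll1 overlapped between the stages. In all, 6 genes had both HE1 libraries above the 3 Flk-1+ libraries and 1, Hes1, had both below, where 44.9% of all genes tested did not overlap (27.6% higher, 17.2% lower).

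In the cells labelled Lmo2-/- the same step gave calls for 2 of the 10 genes, both higher, where 19.6% of all genes tested were called, 17.2% higher and 2.38% lower. Sox7 rose by 4.29 (SE 0.68, limma adjusted p = 0.00092) and Notch1 by 2.43 (SE 0.72, limma adjusted p = 0.025), and the call of Notch1 was lost without HE1 library 1 labelled Lmo2-/- (1.44, adjusted p = 0.26), without Lmo2-/- Flk-1+ library 0 (adjusted p = 0.085) and without Lmo2-/- Flk-1+ library 2 (adjusted p = 0.057). After either other scaling Notch1 differed by 1.40 to 1.43 and was not called. Dll4 differed by 2.16 (SE 0.54, limma adjusted p = 0.011), and Dll1 was lower, at 0 in both HE1 libraries (limma adjusted p = 0.0050), both with group means under 10 FPKM. Without the level requirement 4 genes passed, against 25.5% of all genes tested. Notch4 differed by 1.60 (SE 0.60, limma adjusted p = 0.067), Sox18 by 1.19 (SE 0.61, limma adjusted p = 0.17) and Sox17 by 0.85 (SE 0.63, limma adjusted p = 0.34). Without HE1 library 1 labelled Lmo2-/-, in which both were at 0, Sox18 differed by 2.50 (adjusted p = 0.0062, with a level under 10 FPKM) and Sox17 by 1.94 (adjusted p = 0.052), and without library 0 by -0.12 and -0.25. Hes1 overlapped between the stages (-1.75, SE 0.85, limma adjusted p = 0.15) and differed by 0.020 without library 1. The libraries did not overlap for 7 of the 10 genes, 5 higher and 2 lower in HE1, against 47% of all genes tested (31.9% higher, 15.1% lower).

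Between the HE1 groups, 1 of the 10 genes was called, where 3.01% of all genes tested were called, 2.15% higher and 0.855% lower. The count was also 1 without the level requirement, against 4.54% of all genes tested. Sox18 fell by 3.43 on the log2 scale in the HE1 labelled Lmo2-/- (SE 0.67, limma adjusted p = 0.013). This SE pools the spread over all 13 libraries, Flk-1+ cells included. With only the HE1 groups in the fit, the limma adjusted p of Sox18 was 0.50. In that fit 0 of all genes tested were called, against 51 with library weights and 415 in the fit used here. Library 1 of the HE1 labelled Lmo2-/- listed Sox18 at 0. Without that library Sox18 differed by -2.12 (adjusted p = 0.062), and without WT HE1 library 0 by -2.96 (adjusted p = 0.10), and over 13 alternatives its adjusted p ran from 0.00032 to 0.50. The smallest Sox18 level above 0 in any library, scaled to what a fragment is worth in library 1, gives 1.14 FPKM for 1 step and 3.41 FPKM for 3 steps. If 1 step is 1 fragment, a level of up to about 3.41 FPKM could have been listed at 0 there.

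Sox17 differed by -2.52 (SE 0.69, limma adjusted p = 0.055), with a call at -3.61 (adjusted p = 0.0029) without library 0 of the HE1 labelled Lmo2-/- and -1.43 (adjusted p = 0.35) without library 1. Notch4 differed by -2.10 (SE 0.66, limma adjusted p = 0.091) between the HE1 groups. Hey1 differed by -1.60 (SE 0.64, limma adjusted p = 0.17), Dll4 by -0.76 (SE 0.59, limma adjusted p = 0.50), and Dll1, at 0 in both libraries labelled Lmo2-/-, had a limma adjusted p of 0.21. For Sox7 the difference was -0.46, with a 95% interval from -2.07 to 1.16, and for Notch1 it was 0.58, from -1.11 to 2.27, so both intervals span a rise and a fall. Jag1 differed by 0.01 (95% interval -1.22 to 1.24) and Hes1 by 0.59 (-1.42 to 2.59). For 6 genes both libraries labelled Lmo2-/- lay below both WT libraries, and for 0 above, where 39.7% of all genes tested did not overlap, 25.9% higher and 13.8% lower. With 2 libraries against 2 the exact permutation test cannot go below p = 0.33, and each of the 6 reached that value. Among the 6, Sox17, Sox18, Dll1 and Hey1 were listed at 0 in library 1 labelled Lmo2-/-, the library with many zeros. The median over the 10 genes, which includes these zeros, was -1.07 and over all genes tested 0.15.

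The SOXF and Notch genes were then set against the endothelial gene Cdh5 (VE-cadherin) of the same library, since the endothelial sum also differed between the HE1 groups. Sox7 was 44.6% and 37.5% of the Cdh5 level in WT HE1 and 42.5% and 38.9% in HE1 labelled Lmo2-/-, so it overlapped on this scale. Against Pecam1, another endothelial gene, it was 186% and 128% in WT HE1 and 71.7% and 98.2% in the other group, without overlap. The 2 denominators themselves differed in opposite directions. Cdh5 was 452 and 423 FPKM in WT HE1 and 281 and 365 FPKM in HE1 labelled Lmo2-/-. Pecam1 was 109 and 124 FPKM in WT HE1 and 167 and 144 FPKM in HE1 labelled Lmo2-/-. Notch4 was 9.71% and 6.71% of Cdh5 in WT HE1 and 2.87% and 1.91% in the other group, and Sox18 was 7.94% and 4.33% against 1.84% and 0%, both without overlap. Against Pecam1, Notch4 was 40.4% and 23.0% in WT HE1 and 4.83% and 4.81% in HE1 labelled Lmo2-/-. The summed level of 6 smooth muscle markers was 328 to 376 FPKM in WT HE1 and 541 to 1181 FPKM in HE1 labelled Lmo2-/-, and its part in these differences was not tested.

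**Figure D4:**
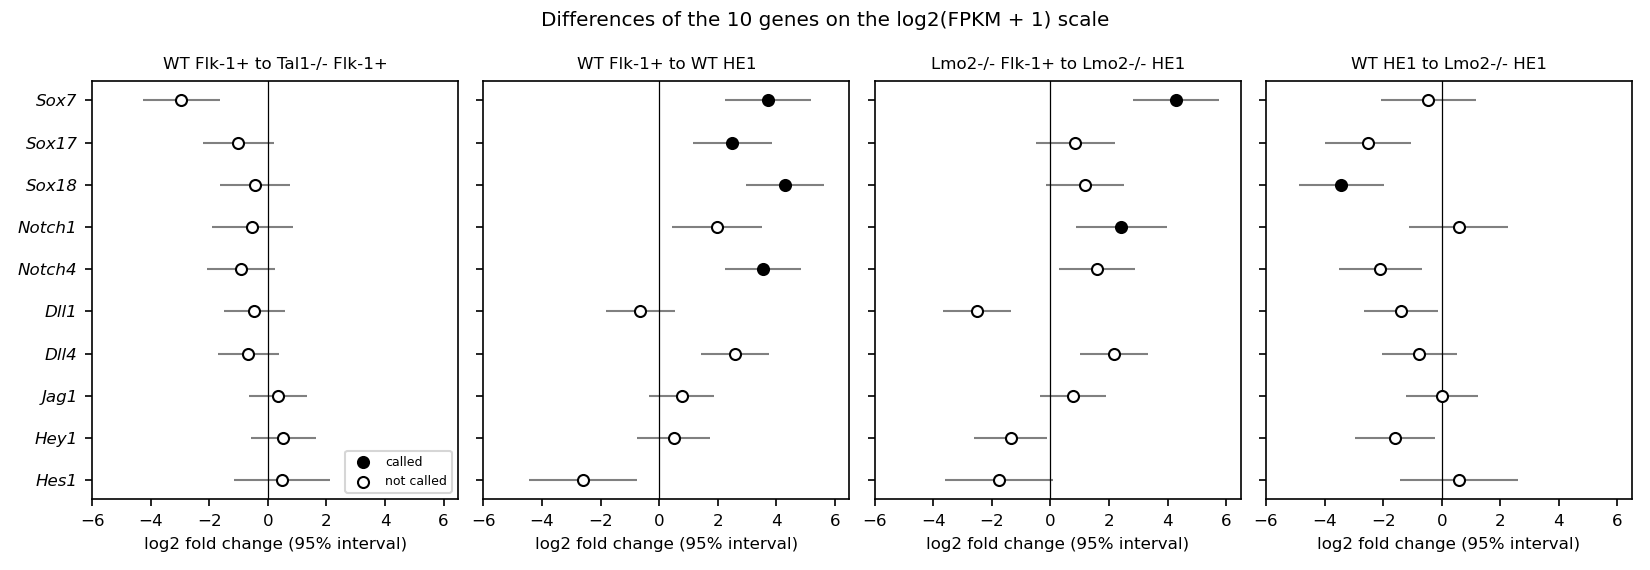
Log2 fold change of each of the 10 genes, on the log2(FPKM + 1) scale, with its 95% interval from limma, for 4 comparisons (second group minus first). Filled points are called. Filled are 4 genes in the WT step to HE1, Sox7 and Notch1 in the Lmo2-/- step and Sox18 between the HE1 groups, with no filled point for Tal1-/- Flk-1+ cells against WT.

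Whether the step to HE1 differed between the genotypes was tested as an interaction in limma, the change in Lmo2-/- cells minus that in WT cells. None of the 10 genes was called, where 0.348% of all genes tested were called (0.261% higher, 0.0869% lower, and 0.464% without the level requirement), and 4 of the 10 had an unadjusted p below 0.05, as had 1672 of all 13802. The differences were -3.11 for Sox18 (SE 0.87, adjusted p = 0.15), -1.94 for Notch4 (SE 0.85, adjusted p = 0.37) and -1.85 for Hey1 (SE 0.82, adjusted p = 0.38), and the adjusted p for Dll1 was 0.33. Without library 0 of the HE1 labelled Lmo2-/-, which leaves only the library with many zeros in that group, Sox18 (-4.42, adjusted p = 0.0025) and Sox17 (-2.74, adjusted p = 0.041) were called. Without library 1 instead, the values were -1.80 for Sox18 (adjusted p = 0.29) and -0.56 for Sox17 (adjusted p = 0.87).

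In Flk-1+ cells no SOXF or Notch gene was called between any pair of genotypes. The share called of all genes was 0% for WT against Lmo2-/-, 0% for WT against Tal1-/- and 0.0145% for Lmo2-/- against Tal1-/- (0.00725% in each direction). In the same order, 307, 843 and 822 of the 13802 genes tested had an unadjusted limma p below 0.05. With no difference in any gene, a share of about 0.05 of the genes tested would pass that threshold. The count for WT against Lmo2-/- was below that share and the others were somewhat above it. These are therefore not counts of genes that differ. Among the SOXF and Notch genes the largest difference was that of Sox7. It was lower in all 3 Tal1-/- libraries than in any WT library (-2.95, SE 0.61, limma adjusted p = 0.16) and than in any Lmo2-/- library (-1.91, SE 0.61, limma adjusted p = 0.66). The exact permutation p was 0.10 in both, the smallest that 3 libraries against 3 allow. These comparisons share the Tal1-/- libraries. Between WT and Lmo2-/- Flk-1+ cells Sox7 overlapped (-1.04, SE 0.61, limma adjusted p = 1.0).

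Set against WT, the Tal1-/- Flk-1+ libraries were without overlap for 4 genes, all lower, Sox7, Sox17, Sox18 and Dll4, where 12.6% of all genes tested did not overlap (5.25% higher, 7.4% lower). Sox18 and Dll4 were listed at 0 in all 3 Tal1-/- libraries and at no more than 0.397 and 1.64 FPKM in WT. Between Lmo2-/- and Tal1-/- cells 3 genes were without overlap (13.3% of all genes tested, 6.59% higher and 6.66% lower), Sox7 and Dll1 lower and Hes1 higher in Tal1-/- cells. Hes1 differed by 0.74 (SE 0.76, limma adjusted p = 0.96). Between WT and Lmo2-/- cells 1 gene, Sox18, was without overlap (8.21% of all genes tested, 3.99% higher and 4.22% lower), at levels under 0.4 FPKM. The endothelial sum was 86.1 to 104 FPKM in Tal1-/- cells, 177 to 335 FPKM in WT and 159 to 210 FPKM in Lmo2-/- cells, in the order of the Sox7 means, with Tek and Esam at 0 in the Tal1-/- libraries. Its largest part was Kdr, the gene of the sort antigen, at 68.7 to 86.0 FPKM in Tal1-/-, 100 to 252 FPKM in WT and 101 to 151 FPKM in Lmo2-/- cells. The part of this sum in the Sox7 difference was not tested.

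The rest of the Notch pathway was read from lists of other genes. Of 6 receptors and ligands, 5 were tested. Dll3, to 0 in both libraries (limma adjusted p = 0.00055), and the receptor Notch3 (-1.55, SE 0.42, limma adjusted p = 0.034) fell in the WT step to HE1, and 0 rose. In that step 0.942% of all genes tested were called lower and 6.04% higher. Called higher were 17.2% in the Lmo2-/- step and 2.15% between the HE1 groups. The median of the 5 was -0.10 in the WT step, 0.37 in the Lmo2-/- step and 0.99 between the HE1 groups. For all genes tested it was 0.11, 0.30 and 0.15. Dlk1, a non-canonical ligand and an imprinted gene, rose in Lmo2-/- cells towards HE1 (3.13, SE 0.61, limma adjusted p = 0.0028) and was higher in HE1 labelled Lmo2-/- than in WT HE1 (2.65, SE 0.66, limma adjusted p = 0.040), with 29.3 and 91.3 FPKM against 4.57 and 11.7 FPKM.

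Of 24 genes for Notch processing, glycosylation and transcription, 23 were tested. In the WT step 3 rose and 0 fell (median 0.51), and in the Lmo2-/- step 9 rose and 0 fell (median 1.07). Of all genes tested, 6.04% and 17.2% were called higher in these steps and 0.942% and 2.38% lower. The coactivator Maml2 rose in both (3.24, SE 0.48, limma adjusted p = 0.00093, and 4.33, SE 0.48, limma adjusted p = 0.00010). So did the protease gene Adam10 (1.63, SE 0.32, limma adjusted p = 0.0060 in WT, and 2.28, SE 0.32, limma adjusted p = 0.00043). Adam17, another protease, rose in the Lmo2-/- step (2.78, SE 0.69, limma adjusted p = 0.011), in which its HE1 values were 20.8 and 209 FPKM. None of the 23 was called between the HE1 groups (median 0.89), where 3.01% of all genes tested were called (median 0.15). The extremes were the glycosyltransferase gene Lfng (2.36, SE 1.17, limma adjusted p = 0.27) and the gamma-secretase gene Aph1a (-1.37, SE 0.59, limma adjusted p = 0.21). Lfng was 0 and 0.285 FPKM in WT HE1. In HE1 labelled Lmo2-/- it was 0 in library 0 and 32.9 FPKM in library 1, the library with many zeros. The sum of the 24 genes was 397 to 484 FPKM in WT HE1. It was 575 FPKM in library 0 and 1278 FPKM in library 1 labelled Lmo2-/-. The level of Rbpj, the DNA-binding partner of Notch, was 12.8 and 13.5 FPKM in WT HE1 and 28.6 and 16.5 FPKM in HE1 labelled Lmo2-/-.

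Of 16 other Notch target genes, 10 were tested, with medians of 0.81 in the WT step, 0.31 in the Lmo2-/- step and -0.23 between the HE1 groups. Of all genes tested, 6.04% were called higher and 0.942% lower in the WT step, and 17.2% and 2.38% in the Lmo2-/- step. Between the HE1 groups these shares were 2.15% and 0.855%. In the WT step Bcl6b, an endothelial repressor (3.55, SE 0.52, limma adjusted p = 0.00086), and Gja4, a connexin of arteries (2.88, SE 0.46, limma adjusted p = 0.0015), rose, and Snai1, a factor of epithelial-mesenchymal transition, fell to 0 in both libraries (limma adjusted p = 0.0020). In the Lmo2-/- step Bcl6b rose (3.01) and Snai1 fell (-3.09). Gja4 was 8.49 and 17.2 FPKM in WT HE1 and listed at 0 in both libraries labelled Lmo2-/-, the 1 target gene called there (limma adjusted p = 0.0022). Efnb2, an arterial ephrin, was lower in every Tal1-/- Flk-1+ library (4.49 to 10.9 FPKM) than in WT (22.3 to 32.0 FPKM) but was not called (-1.74, SE 0.36, limma adjusted p = 0.16).

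Of 14 Sox genes outside the SOXF group, 9 were tested. In the WT step 1 rose and 1 fell (median -0.39), and in the Lmo2-/- step 4 rose and 0 fell (median 1.29). Between the HE1 groups 1 was higher (median 1.04). Over all genes tested the same 6.04%, 17.2% and 2.15% were called higher, and 0.942%, 2.38% and 0.855% lower. Sox11, a SOXC factor, fell in the WT step (-2.01, SE 0.39, limma adjusted p = 0.0060), rose in the Lmo2-/- step (1.34, SE 0.39, limma adjusted p = 0.024) and was called in the interaction (3.35, SE 0.56, limma adjusted p = 0.023). Its HE1 levels were 5.75 and 7.13 FPKM in WT and 95.5 and 41.8 FPKM in the libraries labelled Lmo2-/-. Sox6, a SOXD factor, rose in the WT step (3.55, SE 0.67, limma adjusted p = 0.0048) and in the Lmo2-/- step (4.50, SE 0.67, limma adjusted p = 0.00064), and Sox4, a SOXC factor, rose in the Lmo2-/- step (1.47, SE 0.38, limma adjusted p = 0.013).

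Of 12 arterial and venous genes, 3 of which (Gja4, Gja5 and Efnb2) are also on the list of targets, 10 were tested. In the WT step 4 rose and 1 fell, and in the Lmo2-/- step 6 rose and 1 fell. Between the HE1 groups 2 were higher and 1, Gja4, was lower. Over all genes tested 6.04%, 17.2% and 2.15% were called higher, and 0.942%, 2.38% and 0.855% lower. The medians of the 10 were 1.93, 1.68 and 0.64. Acvrl1, a receptor for BMP ligands in endothelium, rose in both steps (2.84, SE 0.49, limma adjusted p = 0.0026, and 3.77, SE 0.49, limma adjusted p = 0.00029), Nr2f2, a factor of venous identity, rose in the Lmo2-/- step (4.06, SE 0.65, limma adjusted p = 0.00092), and the chemokine receptor gene Cxcr4 fell in both, to 0 in both WT HE1 libraries. Those higher in HE1 labelled Lmo2-/- were the semaphorin and VEGF co-receptor Nrp1 (2.01, SE 0.38, limma adjusted p = 0.011) and the netrin receptor Unc5b (2.05, SE 0.39, limma adjusted p = 0.012). Nr2f2 was 7.20 and 8.27 FPKM in WT HE1 and 5.04 and 45.2 FPKM in HE1 labelled Lmo2-/-, with overlap.

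Scaling mattered for levels in HE1. The median log2 fold change of all genes tested was 0.11 in the WT step, 0.30 in the Lmo2-/- step and 0.15 between the HE1 groups, and after rescaling to a common median it was -0.25, -0.35 and -0.05. The share of calls that were higher moved from 86.5% to 56.9% in the WT step, from 87.9% to 43.8% in the Lmo2-/- step and from 71.6% to 50.4% between the HE1 groups. Under both other scalings Sox7, Sox17, Sox18 and Notch4 remained higher in WT HE1 than in WT Flk-1+ cells and Sox18 remained lower in HE1 labelled Lmo2-/-, each of them called, whereas the sign of Jag1 between the HE1 groups turned.

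Finally, the genes whose profile lay nearest to each of 6 members were listed, by the mean absolute difference of log2(FPKM + 1) over 13 libraries after centring each gene on its own mean. For Sox7 the nearest were Hapln1 (0.54), F2r (0.64) and S1pr1 (0.64), where the median over all genes tested was 2.19. For Sox18 they were Thbd (0.22), Prkch (0.31) and Klhl4 (0.32), with a median of 1.39. Thbd, which encodes thrombomodulin, was 19.1 and 20.7 FPKM in WT HE1, 4.53 FPKM and 0 in HE1 labelled Lmo2-/- and at most 0.194 FPKM in Flk-1+ cells. For Sox17 they were Rapgef3 (0.34), Gm37082 (0.37) and Gja4 (0.37), with a median of 1.13. For Notch1 they were Tns2 (0.27), Hspg2 (0.28) and Ephb4 (0.32), with a median of 1.17. For Notch4 they were Csgalnact1 (0.41), Ecscr (0.49) and Prkar2b (0.50), with a median of 1.32, and for Dll4 they were Zfpm2 (0.21), Pard3b (0.25) and Scarf1 (0.29), with a median of 1.11. Library depth and the divide between Flk-1+ cells and HE1 are shared by all these profiles, and likeness is a description only.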

How the data were processed

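Poly(A) RNA of 5 groups was sequenced as paired ends. Per the labels and methods, the authors aligned reads to mm10 (GRCm38) with TopHat2 2.0.9, assembled transcripts with Cufflinks 2.0.0 and deposited Cuffnorm FPKM values for each library. A table of FPKM per condition gave gene symbols, and the table of the authors' own comparisons (fold changes and p-values) was not used. The deposited FPKM carry no read counts, so depth is read here from the number of genes above 0 and the relative worth of a fragment. ChIP-seq and DNase data were not used here.

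Of 45250 genes, those at 1 FPKM or more in 2 or more libraries, with loci longer than 200 bp, were kept (13802). They were fitted with limma 3.58.1 in R 4.3.3 on log2(FPKM + 1), with a mean-variance trend and a term per group over all 13 libraries, two-sided, with 95% intervals. Exact permutation tests were two-sided and cannot go below 0.10 for 3 libraries against 3, 0.33 for 2 against 2 and 0.20 for 3 against 2. On simulated data for these 13802 genes, in which 200 carried a log2 difference of 3, limma called 89.5% of them for WT against Lmo2-/- Flk-1+ cells and 74.5% for the HE1 groups. The 200 were drawn from genes of high mean level, which of the 10 members only Notch1 had. Each gene had the same simulated spread in all libraries, without the zeros of library 1 of the HE1 labelled Lmo2-/-. These shares therefore do not hold for the lower members. The text names all 10 members, and from each list up to 2 called genes in each direction whose libraries did not overlap, taken by size, or the extremes where none was called. For 6 members the 3 nearest profiles are named. The levels of Rbpj, Thbd and, between the HE1 groups, Nr2f2, and the Lmo2-/- step of Adam10, were chosen after their values were seen. The members and lists were chosen with earlier results of these data known. Alternatives were a pseudocount of 0.1, other filters, 2 other scalings, library weights, fits of only the groups compared, a replicate block and leaving out each library. Python 3.11.15, pandas 2.3.3 and scipy 1.17.1 were also used.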

Additional observations from a re-analysis of the deposited data

How the results depend on the processing

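Called genes among the 10 numbered 4 in the WT step to HE1 and 3 to 6 under every alternative. In the Lmo2-/- step the count of 2 became 1 with no filter on low values, after quantile normalization, after rescaling to a common median, with only the groups compared, with array weights and with the replicate block, where Notch1 was lost, and 4 without the FPKM criterion. It ran from 1 to 3 when each library was left out. Between the HE1 groups the count of 1 became 0 with a pseudocount of 0.1, with only the groups compared and with array weights, and ran from 0 to 2 over left-out libraries. The interaction ran from 0 to 2 over left-out libraries, and the 3 Flk-1+ comparisons stayed at 0 throughout. The causes were not tested. Libraries with the same number had correlations of -0.18 to 0.17 over all genes between the Flk-1+ groups. WT and Tal1-/- libraries of the same number had 0.17, 0.074 and 0.11. Between WT and Lmo2-/- the highest correlations joined different numbers, WT 0 with Lmo2-/- 1 (0.34), WT 1 with Lmo2-/- 2 (0.31) and WT 2 with Lmo2-/- 0 (0.30). No fit used those pairs, so the libraries may not be independent, and what they share was not tested. The replicate block, by number, changed no other call. Signs turned for several differences, none of which was called in the report. After quantile normalization they were 0.0037 for Sox17 between Lmo2-/- and Tal1-/- Flk-1+ cells, -0.19 for Jag1 between the HE1 groups, and -0.10 for Notch1 and -0.22 for Jag1 in the interaction. After rescaling to a common median they were -0.41 for Jag1 between the HE1 groups, -0.043 for Jag1 in the Lmo2-/- step, and -0.049 for Notch1 and -0.43 for Jag1 in the interaction. With a pseudocount of 0.1 the interaction was 0.13 for Dll4 and -0.048 for Jag1, and with array weights it was -0.23 for Jag1. Leaving out each library in turn also turned signs. Between the HE1 groups Notch1 ran from -0.41 to 1.56, Jag1 from -0.47 to 0.49 and Hes1 from -1.19 to 2.36. In the interaction Notch1 ran from -0.52 to 1.45, Dll4 from -1.12 to 0.25, Jag1 from -0.47 to 0.48 and Hes1 from -0.92 to 2.62. In the Lmo2-/- step Sox17 ran from -0.25 to 1.94, Sox18 from -0.12 to 2.50 and Hes1 from -3.53 to 0.020. For WT against Lmo2-/- Flk-1+ cells Notch1 ran from -0.29 to 0.78, Notch4 from -0.62 to 0.20, Dll4 from -0.58 to 0.039 and Jag1 from -0.26 to 0.40. For WT against Tal1-/- cells Notch1 ran from -0.92 to 0.13, and for Lmo2-/- against Tal1-/- cells Sox17 ran from -0.27 to 0.10 and Sox18 from -0.18 to 0. Of the single-gene values under alternatives that kept all libraries, 580 kept direction and call, 7 gained a call, 11 lost it and 11 turned sign.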
